A study of Mus musculus with 3 samples.

Results

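The 9 miRNA hairpins described here are those that mark cell lineages other than the beta cell: Mir122 (liver), Mir142 and Mir223 (leukocytes), Mir143 (smooth muscle and fibroblasts), Mir204, Mir126a (endothelium), Mir216a and Mir217 (pancreatic acinar cells) and Mir451a (red cells). They were chosen by name, out of 2238 mouse hairpins whose sequences were available. MIN6 cells are a mouse line that grew out of an insulinoma, and they stand in for the pancreatic beta cell. Small RNA was sequenced from 3 MIN6 libraries, all from cells kept in 25 mM glucose in a medium with fetal bovine serum, and none of the libraries was treated or modified otherwise. As all libraries came from 1 cell line under 1 condition, no contrast between groups was made. Levels of the placed arms and shares of shifted starts and mismatching 3′ ends are given per library (n = 3). Shares of read lengths and of mismatches inside reads are pooled over the libraries. The study describes the libraries as biological replicates, and the labels do not say more. The libraries held 9269795, 10816006 and 10218743 mapped reads (replicates 1, 2 and 3). A floor of 3 reads was set for a count of 0. In these libraries it equals 0.324, 0.277 and 0.294 RPM (reads per 1000000 mapped reads). This floor is not an end of the exact intervals given below.

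miRNAs are cut from the 2 arms of a hairpin precursor, and the mature strand from the 5p or the 3p arm guides the silencing complex to its mRNA targets. The bases 2 to 8 of the mature strand, the seed, are the main determinant of target choice, so a mature miRNA whose 5′ end is shifted (a 5′-shifted isomiR) carries another seed. Many miRNAs are made mainly in 1 lineage: miR-122 is the dominant miRNA of hepatocytes, miR-142 and miR-223 are made in blood cells, miR-451a in the erythroid lineage, miR-126 in endothelium from an intron of Egfl7, miR-143 in smooth muscle and fibroblasts, and miR-216a and miR-217 in the exocrine pancreas. miR-204 is made from an intron of Trpm3 and is also known from pancreatic islets, so that of the 9 it is the least specific to cells outside the islet. miR-375 is the most characteristic miRNA of the beta cell.

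For Mir126a and Mir204, members with placed reads, the mature sequences are shown because the start of each read decides the seed (RefSeq, GRCm38.p6). The bases 2 to 8 are in capitals. The forms of miR-126a-3p that start 1 nt upstream or downstream, and miR-126a-5p, were read from the RefSeq hairpin at the start of the reads, over their most frequent length.
miR-126a-5p: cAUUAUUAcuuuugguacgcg
miR-126a-3p: uCGUACCGugaguaauaaugcg
miR-126a-3p, 1 nt upstream: cUCGUACCgugaguaauaaugcg
miR-126a-3p, 1 nt downstream: cGUACCGUgaguaauaaugcg
miR-204-5p: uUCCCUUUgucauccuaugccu
The 3 forms of miR-126a-3p have 3 different seeds. miR-204-5p shares its seed with miR-211-5p, the product of its paralogue Mir211, and the pair differs at 1 of 22 bases (A17U, with the base of miR-204-5p first and positions counted from the 5′ end). For members with no assigned reads the sequences that were searched for include the following, with the seed in capitals. Among the members with a listed mature sequence, which leaves out Mir122 and Mir143, no seed was shared.
miR-142a-5p: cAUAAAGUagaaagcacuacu
miR-142a-3p: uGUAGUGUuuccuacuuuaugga
miR-223-3p: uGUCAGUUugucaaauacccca
miR-216a-5p: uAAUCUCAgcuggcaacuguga
miR-217-5p: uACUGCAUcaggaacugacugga
miR-451a: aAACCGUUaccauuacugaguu

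The deposited alignments are on the mm9 build and carry no sequence and no gene names, so each member first had to be placed. Mir126a was placed by sequence, from 26446877 to 26446949 on the plus strand of chromosome 2. Recorded mismatches exclude bases, and the hairpin was tried along that strand wherever enough reads started. This place was not contradicted and carried the most information (32.7 bits), at least 10 bits more than the next best place. Whether other sequences would fit there was not tested. Both arms of Mir126a, miR-204-5p (22825100, plus strand of chromosome 19) and miR-143-3p (61808873, minus strand of chromosome 18) were also found as the only start on that strand whose reads in all 3 libraries fitted the expression that the study lists for that arm. For miR-143-3p, 1 further start in the genome had the same read numbers, in Mir421, and consisted of other alignments. Thus 3 of the 9 members had a placed start, and all 3 exceeded 3 reads in every library. Of these 3, only Mir126a was named by sequence, while 165 of all 2238 hairpins were so named at 25 bits. Levels listed by the study were matched for member arms only, so 3 of 9 cannot be set against a share over all hairpins. The other 6 members had no placed start, and limits that concern only the starts covered by a search are given for them below.

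miR-126a-5p was the most abundant of the placed arms. The reference start held 1180, 1287 and 1047 reads, or 127, 119 and 102 RPM, with 95% exact Poisson intervals of 120 to 135, 113 to 126 and 96.3 to 109 RPM. Its mean was 116 ± 12.6 RPM (SD, n = 3), and replicate 3 was the lowest, with an interval that did not reach that of replicate 2 or 1. Intervals cover counting error only. The reads carry no molecular identifiers, so repeated reads of 1 molecule cannot be told apart and count as separate reads.

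miR-126a-3p, the arm usually regarded as the guide strand in endothelium, held 143, 160 and 162 reads at its reference start. This corresponds to 15.4, 14.8 and 15.9 RPM, with a mean of 15.4 ± 0.534 RPM (SD, n = 3). The 3 libraries lay within each other's counting intervals. The 5p arm therefore exceeded the 3p arm by 8.25-, 8.04- and 6.46-fold (mean 7.59 ± 0.978, SD, n = 3). With all 3p starts within 3 nt, the ratio was 4.47, 4.80 and 4.12.

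miR-204-5p held 103, 111 and 102 reads, or 11.1, 10.3 and 9.98 RPM. The mean was 10.5 ± 0.588 RPM (SD, n = 3), and the libraries did not differ beyond their counting intervals, of which the widest ran from 9.07 to 13.5 RPM. No read started within 3 nt of the miR-204-3p start (22825139) in any library. The floor of 3 reads is 0.324 RPM in the smallest library. The 68 bases of the Mir204 hairpin, 22825095 to 22825162, held no other read on either strand.

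miR-143-3p was the least abundant of the placed arms, with 26, 32.5 and 33 reads. The fraction arises from a read that was divided among loci. These are 2.80, 3.00 and 3.23 RPM, a mean of 3.01 ± 0.212 RPM (SD, n = 3), and the counting intervals were wide, from 1.83 to 4.11 RPM in replicate 1 and from 2.22 to 4.54 RPM in replicate 3. The lower bounds lay above 3 reads in each library, while differences between the libraries were not detectable at this depth.

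**Figure D1:**
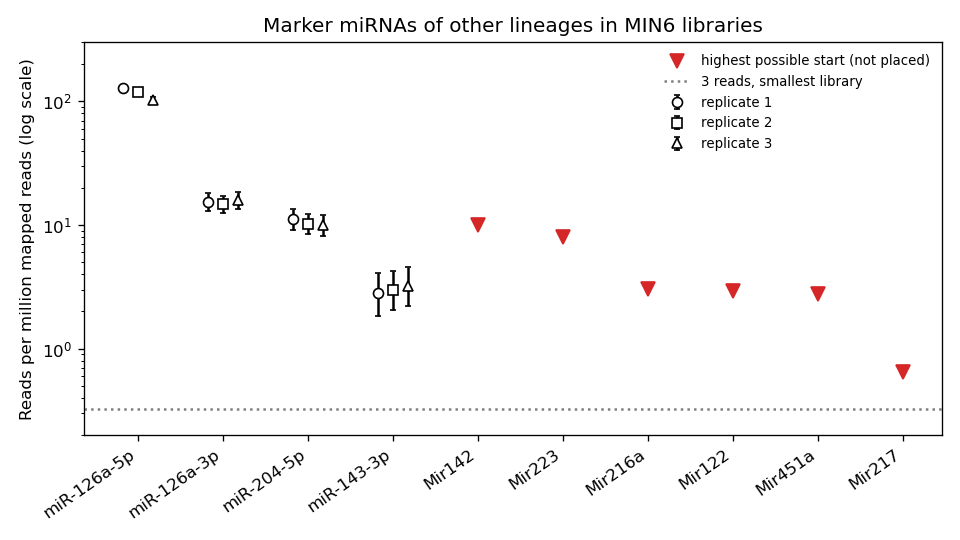
RPM (log scale) of the 4 placed arms in each library, with 95% Poisson intervals as bars, and the observed level of the highest possible start (triangles pointing down, no counting error drawn) for the 6 members without a placed start; the dotted line is 3 reads in the smallest library. miR-126a-5p lies above 100 RPM in every library and the other placed arms between 2.80 and 15.9 RPM.

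The order of the 4 arms was miR-126a-5p, miR-126a-3p, miR-204-5p and miR-143-3p, and the 3 values of each arm lay above all 3 of the next. The closest neighbours were miR-126a-3p, with a lowest value of 14.8 RPM, and miR-204-5p, with a highest value of 11.1 RPM, and their ratio was 1.47 ± 0.104 (SD, n = 3). miR-204-5p exceeded miR-143-3p by 3.49 ± 0.440-fold (SD, n = 3). Together the 4 arms summed to 157, 147 and 132 RPM, a mean of 145 ± 12.7 RPM (SD, n = 3), of which miR-126a-5p alone made up 81.3%, 80.9% and 77.9%. With 3 libraries of 1 condition, no test of these differences was made.

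The beta cell miRNA miR-375-3p stood at 334275, 357402 and 371065 RPM in the same libraries (mean 354247 ± 18597, SD, n = 3). It exceeded miR-126a-5p by 2626-, 3004- and 3622-fold and miR-143-3p by 119179-, 118943- and 114904-fold. The summed level of the 4 placed arms was 0.0410% of that of miR-375-3p.

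Among 292 arms of other hairpins that could be named by sequence and had at least 10 reads in every library, 148 were higher and 144 lower than miR-126a-5p, so this arm lay next to their median of 124 RPM. For miR-126a-3p 51 arms were lower, for miR-204-5p 44, and for miR-143-3p 17. Naming needs mismatched reads and favours abundant hairpins, so these ranks are those among well-covered hairpins of the sequence table, not among all miRNAs. The table also holds the small nucleolar RNA Snord43, with 2 of these arms, and gene models without a miRNA name, with 10 of them. Copies such as Mir24-1 and Mir24-2, whose 3p arms had the same reads, count as separate arms. The arms nearest in level to miR-126a-5p, by the mean absolute log2 ratio over 3 libraries, were Mir455 3p (115 RPM, difference 0.07) and Mir1198 5p (112 RPM, difference 0.09). Those nearest to miR-126a-3p were Mirlet7e 3p (14.5 RPM) and Gm47295 5p (16.5 RPM), those nearest to miR-204-5p were Mir328 5p (11.2 RPM) and Mir98 3p (10.5 RPM), and those nearest to miR-143-3p were Mir421 5p (3.01 RPM) and Gm47304 3p (3.02 RPM).

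**Figure D2:**
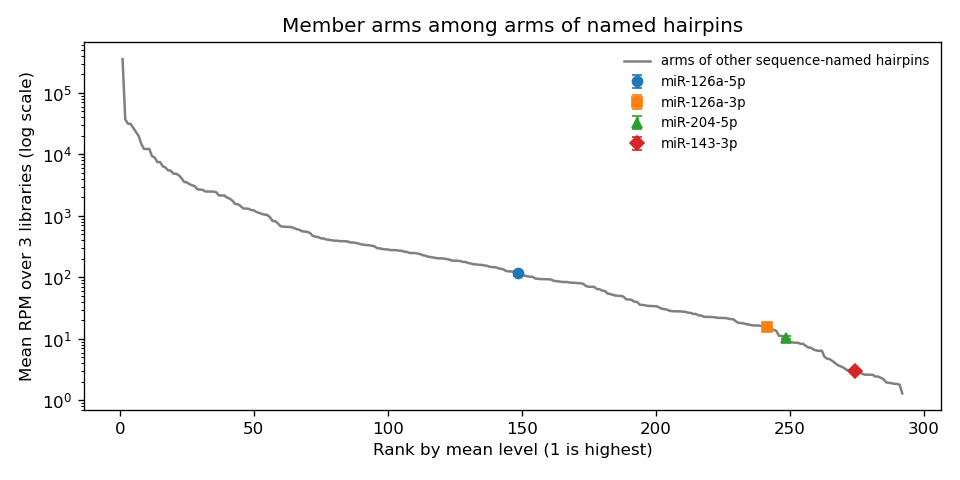
Mean RPM over 3 libraries (log scale) of 292 arms of other sequence-named hairpins in order of level (grey line), with the 4 member arms as points with SD bars. miR-126a-5p lies near the middle of the curve and the other 3 arms in its lower tail.

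The 5′ starts differed between the 2 arms of Mir126a. On the 5p arm, the start at base 9 of the hairpin held nearly all reads: 1, 1 and 0 reads started elsewhere within 3 nt, a shifted share of 0.0847%, 0.0776% and 0%. On the 3p arm, the reference start at base 46 held 143, 160 and 162 reads, base 45 (1 nt upstream) 26, 17 and 19, and base 47 (1 nt downstream) 95, 91 and 73. The shifted share was 45.8% (exact binomial 95% interval 39.7 to 52.1), 40.3% (34.4 to 46.4) and 36.2% (30.3 to 42.5), with a mean of 40.8% ± 4.82 (SD, n = 3). The downstream form accounted for 32.9% ± 3.74 and the upstream form for 7.89% ± 1.79 (SD, n = 3) of the reads of the arm.

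**Figure D3:**
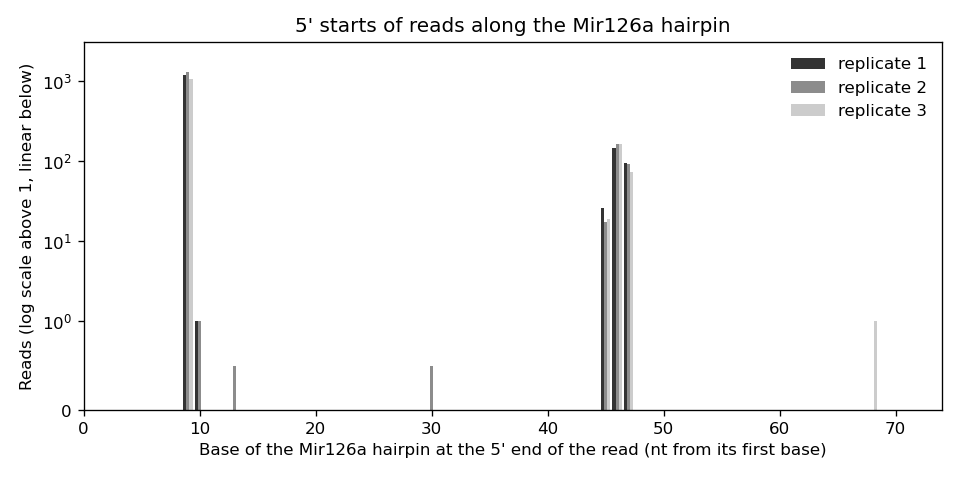
Reads (log scale above 1) by the base of the Mir126a hairpin at which they start, for each library, with the first base of the hairpin as 1. The 5p arm has 1 dominant start at base 9, and the 3p arm has 3 starts at bases 45, 46 and 47.

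The other placed arms had nearly uniform 5′ ends. None of the 103, 111 and 102 reads of miR-204-5p was shifted, which allows a shifted share of up to 3.52%, 3.27% and 3.55% (exact binomial interval). miR-143-3p had 1, 1 and 0 shifted reads, a share of 3.70%, 2.99% and 0%, and its upper bounds of 19.0%, 15.3% and 10.6% show that its depth is too low to say more. The intervals of miR-126a-3p lay above those of all 3 other arms in each library. One read in replicate 3 lay on the strand opposite to the Mir126a hairpin, and none in the other libraries.

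Read lengths separated the arms. Pooled over the 3 libraries, 94.5% of the miR-126a-5p reads were 21 nt long, and of the miR-126a-3p reads 77.2% were 22 nt. miR-204-5p was spread over 22 nt (49.5%) and 23 nt (37.5%), and miR-143-3p over 20 nt (45.9%) and, less often, 21 nt (24.6%) and 22 nt. A further 7 reads at the miR-126a-5p start were 38 to 40 nt long and thus ran through the loop.

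**Figure D4:**
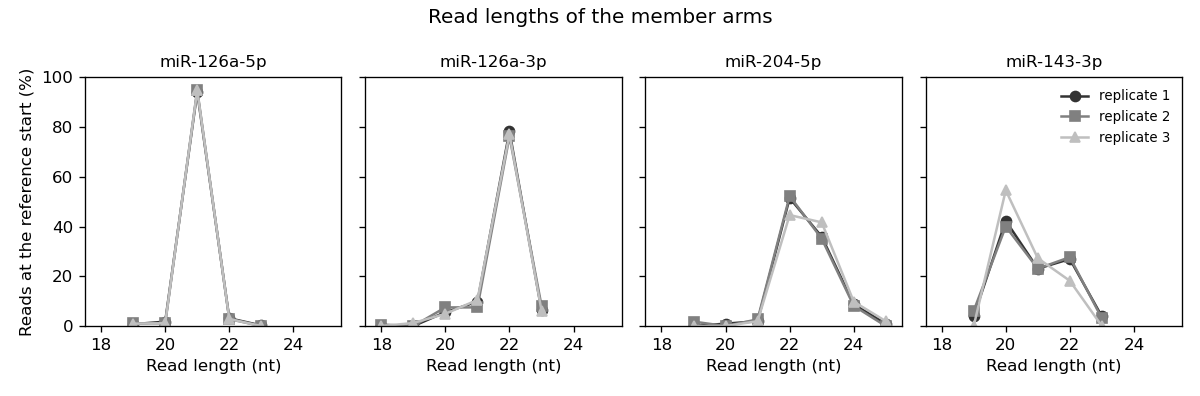
Share of the reads at the reference start (%) by read length in nt, from 18 to 25 nt, with a line for each library and a panel for each arm. miR-126a-5p has a dominant length of 21 nt, and miR-143-3p is spread over 20 to 22 nt.

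The 3′ ends with a base that does not match the genome, which the authors count as non-templated additions, were rarest in miR-126a-5p. The share was 3.47%, 2.95% and 3.25% for miR-126a-5p, 7.69%, 9.38% and 7.41% for miR-126a-3p, and 12.6%, 10.8% and 12.3% for miR-204-5p. For miR-143-3p it was 30.8%, 38.5% and 18.2%, with intervals as wide as 14.3 to 51.8%. The means were 3.22% ± 0.262, 8.16% ± 1.06, 11.9% ± 0.957 and 29.1% ± 10.2 (SD, n = 3). The values of the 4 arms did not overlap between arms, although the interval of miR-143-3p in replicate 3, from 6.98 to 35.5%, covered the share of miR-204-5p, and the interval of miR-126a-3p did so in all 3 libraries (3.90 to 13.3%, 5.34 to 14.99% and 3.89 to 12.6%). miR-126a-3p and miR-204-5p were thus not separated beyond counting error within a library.

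Mismatches inside the reads fell mostly on single positions. In miR-204-5p, 65 of 316 reads (20.6%) had C at base 12 (A12C, positions counted from the 5′ end of the read), with 23, 25 and 17 reads in the 3 libraries. miR-126a-5p had A17C in 119 reads (3.39%), and miR-126a-3p had A11C in 28 (6.02%) and A17C in 10 (2.15%). The A11C reads of miR-126a-3p numbered 5, 11 and 12 in the 3 libraries. In miR-143-3p, 22 of 91.5 reads had C at base 12, with 3, 10 and 9 reads in the 3 libraries. These shares lay within the range of other miRNAs with A at the same position in the read, which was not compared for miR-143-3p. In 64 other named arms with A at base 12 the share with C ranged from 7.11 to 30.7%, with a median of 18.7%, and 21 of the 64 exceeded miR-204-5p. At base 11 the share ranged from 3.59 to 10.9% in 39 arms, with a median of 7.81%. At base 17 it ranged from 0.151 to 4.65% in 48 arms, and miR-126a-5p lay above their median of 1.48%. At bases 2 to 5, 13 to 15, 18 and 19 no arm exceeded 0.369%. When reads with any mismatch, inside or at the 3′ end, were left out, miR-204-5p was at 6.77 RPM, miR-143-3p at 1.47 RPM and miR-126a-5p at 107 RPM. The part of each position in these differences was not tested.

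**Figure D5:**
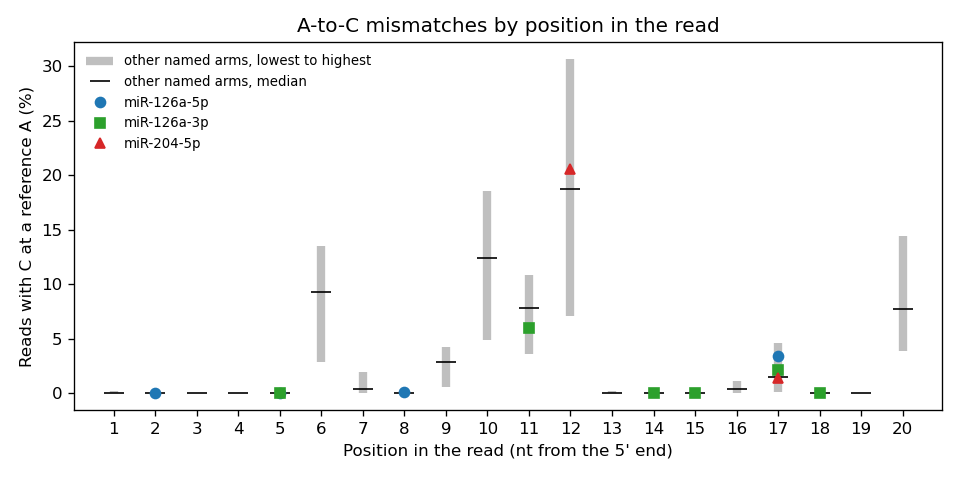
Share of reads (%) with C where the reference has A, by position in the read from its 5′ end. Grey bars run from the lowest to the highest of the other named arms with at least 100 reads, the black dash is their median, and colored points are 3 member arms. The members lie within the range of the other arms at bases 11, 12 and 17.

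For Mir122, Mir142, Mir223, Mir216a, Mir217 and Mir451a, the reads were searched between the nearest small RNAs that could be named by sequence on each side. A start was kept as possible if it held more than 3 reads in all, at least 50% of them from 20 to 24 nt long and at least 50% with a single locus, and if no recorded mismatch excluded the member's sequence within 3 nt of its mature start (for Mir122, anywhere in the hairpin). The highest observed level of any possible start in any library is given as the limit for the member, followed by the upper end of its 95% exact Poisson interval, because the level itself carries no counting error. Hairpins named by sequence were found by the same mismatches that the search uses, so they cannot show that the limits hold for members with few reads, and this was not tested. They show where the search falls short. Its limit was below the reads of the hairpin's own highest start for all 9 hairpins whose highest start was not listed, and for all 14 with mostly divided reads. It was also too low for Mir182, Mir541 and Mir3102, whose highest start was listed and had mostly single-locus reads. Searched anywhere in the hairpin, as for Mir122, it was too low for all 19 hairpins with mostly divided reads and for 4 of 143 others. Mir126a is 1 of the hairpins with an unlisted highest start, that of its 5p arm: its limit came to 20.2 RPM, far below the 102 to 127 RPM of miR-126a-5p. For Mir143, with 3.01 RPM, the search gave 27.2 RPM, and for Mir204 it gave 11.1 RPM, its own highest value. The limits of Mir142, Mir223, Mir216a, Mir217 and Mir451a thus concern their listed mature starts and mostly single-locus reads only.

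Mir122 lay between Mir378a and Gm23301 on chromosome 18, where 2584 starts held reads. Of these, 13 met the conditions on reads, length and locus, and mismatches left 6 of the 13 as possible. The highest, at 65408520 on the plus strand, held 27, 16 and 20 reads, or 2.91, 1.48 and 1.96 RPM, which gave the liver miRNA a limit of 2.91 RPM (Poisson bound 4.24). The next highest held 0, 7 and 0 reads. Whether the start at 65408520 is that of Mir122 was not resolved by the mismatches.

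The leukocyte miRNAs had the highest limits of the 6 members with neighbours named at 25 bits. For Mir142, 4258 starts held reads, 19 met the conditions on reads, length and locus, and mismatches left 18 of the 19 as possible. The highest held 0, 99.7 and 101 reads, a limit of 9.92 RPM (Poisson bound 12.05). This start had no read in replicate 1, where no possible start exceeded 13 reads. For Mir223, 24 of 4549 starts met these conditions, and mismatches left 14 of the 24 as possible. The highest held 67, 66 and 82 reads, a limit of 8.02 RPM (Poisson bound 9.96). With the neighbours of Mir223 named at a looser threshold (20 bits) it was 3.37 RPM, from a start with 3.7, 36.5 and 4 reads. That value rested on replicate 2, and without it was 1.51 RPM.

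The acinar miRNAs and the red cell miRNA had lower limits than Mir142 and Mir223. Each limit is set by the starts in its own interval, so the limits do not order the lineages. Of the starts that met the other conditions, mismatches left 20 of 23 for Mir216a, 19 of 23 for Mir217 and 5 of 6 for Mir451a. No possible start of Mir217 exceeded 5, 7 and 6 reads, a limit of 0.647 RPM (Poisson bound 1.33), and its neighbour Mir216b had the same limit. Mir216a had a limit of 3.05 RPM (Poisson bound 4.28) from a start with 27, 33 and 29 reads, and the next highest held 2, 7 and 6. Mir451a had a limit of 2.77 RPM (Poisson bound 3.96) from a start with 23, 30 and 23 reads. The next highest held 4, 4 and 4 reads. Mir144, made from the same transcript as Mir451a, had the same limit from the same start.

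Thus the limits of the 6 members ranged from 0.647 to 9.92 RPM and their Poisson bounds from 1.33 to 12.05 RPM. These values lay below the lowest of miR-126a-5p (102 RPM) and miR-126a-3p (14.8 RPM), but only for the starts that the search covers. They do not rank the 6 members below these arms, since the same search gave Mir126a itself a limit of 20.2 RPM. Mir145a, the cluster mate of Mir143, had a limit of 48.6 RPM (Poisson bound 53.3), and Mir211, the paralogue of Mir204, one of 2.96 RPM (Poisson bound 4.19). Of the 6 members, 5 (all but Mir217) had at least 1 possible start with more than 3 reads in every library, so that at least 3 of the 9 members passed the limit of detection, and at most 8 within the conditions of this search. In bulk libraries such as these, few cells with much of a miRNA and many cells with little of it cannot be told apart.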

How the data were processed

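Small RNA was sequenced from 3 MIN6 libraries (TruSeq small RNA kit, HiSeq). The authors trimmed the adaptor with cutAdapt 1.0, aligned reads to mm9 with Bowtie 0.12.7, built windows with bedtools 2.17.0 and aligned the rest with SHRiMP 2.2.2. The values the authors deposited are expected counts of reads per alignment, not normalized: a read with several equally good loci is divided among them, so counts need not be whole. Reads with mismatches were sought near exact matches only.

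With Python 3.11.15, numpy 2.4.6, pandas 2.3.3, scipy 1.17.1 and matplotlib 3.10.9, reads were summed by 5′ start after correcting exact alignments, which end 1 base early. RPM is per 1000000 mapped reads of the library. Hairpins and other small RNAs were named by sequence from mismatches at starts with at least 15 reads, at 25 bits. A threshold of 20 bits was tried first. It named 193 hairpins and 1 reversed hairpin of 2238, and 25 bits, chosen after seeing this, named 165 and 0. On simulated data (100 hairpins, 100 random sequences) 49 of 54 named loci were correct, and the 5 others lay at a copy with 22 identical bases. For limits, only the order of genes in GRCm38 (RefSeq and GENCODE) was used, and no value rests on a position carried over to mm9. Before the rules for these limits were written, reads had been looked at near GRCm38 positions shifted by the offset of named neighbours. This pointed to the highest possible start of Mir122 and the second of Mir451a, and was not used to place them.

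The members, lists and alternatives were chosen with earlier results of these data known. Named genes are the arms of the 9 members, the mates and paralogues Mir145a, Mir144, Mir216b and Mir211, Mir375, and the 2 nearest arms in level for each member arm with at least 10 reads in every library. No test between groups was possible. Alternatives were other starts, exact or single-locus reads only, reads of 18 to 25 nt, other denominators, a detection limit of at least 10 reads, other thresholds and leaving out each replicate. Counting possible starts, the threshold of 20 bits and the length filter on shifted shares were added after seeing the data.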

Additional observations from a re-analysis of the deposited data

How the results depend on the processing

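Of 50 alternative values, leaving out those without 1 replicate, 34 moved by less than 1 SD (or left the count within 1.5-fold) and 16 moved further. All 3 placed members were detected under each setting that concerns placed starts, and at thresholds of 20 and 40 bits this follows from the construction, since the published list still gave the starts. When any possible start was counted for the members without a place, 8 members were detected in place of 3. Without mismatched reads, the sum was 127 RPM in place of 145, miR-126a-3p 12.4 RPM, miR-204-5p 6.77 RPM and miR-143-3p 1.47 RPM. With the reads of the named hairpins as denominator, the sum was 188 RPM, miR-126a-5p 150.4, miR-126a-3p 19.9, miR-204-5p 13.5 and miR-143-3p 3.90. With mapped reads without Mir375 as denominator, they were 228, 183, 24.2, 16.5 and 4.76 RPM. With all starts within 3 nt, miR-126a-3p rose to 26.0 RPM. Leaving out each replicate gave 139 to 152 RPM for the sum, 111 to 123 for miR-126a-5p, 15.1 to 15.6 for miR-126a-3p, 10.1 to 10.7 for miR-204-5p, 2.90 to 3.12 for miR-143-3p, and 38.3 to 43.1% for the shifted share of miR-126a-3p. The order of the 4 arms was the same with all starts within 3 nt, exact, single-locus or 18 to 25 nt reads, without overlap between neighbours. The limit of Mir223 was 3.37 RPM when its neighbours were named at 20 bits, in place of 8.02 RPM, and 1.51 RPM without replicate 2. That of Mir205 was 30.4 RPM at 40 bits, in place of 3.34 RPM, from the start of Mir1981 5p, which is named at 25 bits. No other limit moved by over 1.5-fold at either threshold. No paired analysis was possible because there was a single condition. At the floor of 3 reads, a level below 0.324 RPM did not count as detected in the smallest library.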

Other observations

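Limits were also computed for miRNAs of further lineages. Mir150, made in lymphocytes, had a limit of 1.47 RPM (upper end of the Poisson interval 2.42) from a start with 7, 9 and 15 reads, and of 0.832 RPM without replicate 3. The muscle miRNAs Mir133b and Mir206, which are neighbours, had a limit of 1.48 RPM from a start with 0, 16 and 14 reads, and the heart miRNAs Mir208a and Mir208b one of 3.42 RPM from a start with 21, 37 and 12 reads. This limit rested on replicate 2, and without it was 2.27 RPM. Mir203 and Mir205, known from squamous epithelium, had limits of 5.01 and 3.34 RPM, the latter from a single possible start. With neighbours named at 40 bits the search for Mir205 gave 30.4 RPM, but the start it found is Mir1981 5p, which is named at 25 bits. For Mir1a-1, Mir1a-2, Mir133a-1 and Mir133a-2 no limit is given, because their mature sequences come from several loci, and the search for a limit does not cover divided reads.

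The reads in the 162 hairpins named at 1 place, at least 10 bits ahead of any other, made up 77.6%, 77.6% and 76.7% of the mapped reads. A C in place of A at bases 6, 10, 11, 12 and 20 of the read was common to the named arms at large, with medians of 9.26%, 12.4%, 7.81%, 18.7% and 7.71%. Its cause was not tested.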
